A study of Mus musculus with 3 samples.

Results

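The antiviral interferon-stimulated genes are a list of 42 genes whose products bind viral nucleic acid, block virus replication or tag proteins with the ubiquitin-like modifier ISG15. They were followed in macrophages grown from mouse bone marrow and treated with adiponectin, a hormone secreted by fat cells. Members were found by matching the RefSeq accession of each probe to the listed symbols. Probes matched 39 of the 42 genes, and all 39 passed the filter on dim probes, beside 13181 genes measured on the arrays in all. Ifi205, Mx1 and Mx2 had no matched probe, so their expression was not analysed here. Marrow of C57BL/6J mice was the source of the cells, which were grown with medium conditioned by L929 fibroblasts as the source of CSF-1, and placed in low serum before treatment. One group stayed untreated and the other received adiponectin at 12 µg/ml for 18 h, a dose that the extraction text of the labels gives in mg/ml. Each of 3 arrays with 2 dyes held treated RNA in one dye and untreated RNA in the other. Cy3 carried the treated RNA on replicates 1 and 3, Cy5 on replicate 2. The labels call the arrays biological replicates without saying that the cells came from separate mice, so p-values measure the spread between these samples, and the number of arrays limits their precision.

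Type I interferons bind a receptor of the chains IFNAR1 and IFNAR2, whose kinases JAK1 and TYK2 phosphorylate STAT proteins. STAT2 is one of those that join IRF9 in the complex ISGF3, which binds the interferon-stimulated response element (ISRE) in the promoters of antiviral genes. Macrophages keep many of these genes at a basal level, and sensors of viral or bacterial nucleic acid raise them by way of interferon beta.

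The promoters of 31 of the 42 genes were found in RefSeq (build GRCm38.p6), some with several start sites. The core letters of the response element, GAAA followed by 2 bases of any kind and GAAA again, were searched on both strands in the 300 bases from 250 before to 50 after each start site, and matches in a row could overlap each other. At least 1 match was present for 14 of the 31 genes, or in 16 of their 41 promoter windows (39.0%), against 3.44% of 32851 windows of all genes. Matches were found for 1 of the 6 members with a promoter that rose (Isg15), for 10 of the 21 that fell, for 2 of the 3 that did not pass and for Ifi205, which was not measured. Stretches of 160 bases upstream of the start site are shown for 8 members that hold a match there and that rose, fell or did not pass, with each match in capitals.
Isg15 (rose), GRCm38.p6 chr4:156200819-156200978, minus strand: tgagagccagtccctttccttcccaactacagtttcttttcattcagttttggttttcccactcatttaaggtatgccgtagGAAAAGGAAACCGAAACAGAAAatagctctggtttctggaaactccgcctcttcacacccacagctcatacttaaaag
Ifit1 (not called), chr19:34640729-34640888, plus strand: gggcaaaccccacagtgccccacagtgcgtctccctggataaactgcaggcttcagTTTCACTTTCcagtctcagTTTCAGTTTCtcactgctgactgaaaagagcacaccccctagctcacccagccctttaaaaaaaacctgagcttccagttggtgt
Bst2 (not called), chr8:71537473-71537632, minus strand: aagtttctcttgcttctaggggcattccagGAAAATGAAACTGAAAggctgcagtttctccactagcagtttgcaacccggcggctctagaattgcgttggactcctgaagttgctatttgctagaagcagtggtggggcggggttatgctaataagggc
Ifit3 (fell), chr19:34583369-34583528, plus strand: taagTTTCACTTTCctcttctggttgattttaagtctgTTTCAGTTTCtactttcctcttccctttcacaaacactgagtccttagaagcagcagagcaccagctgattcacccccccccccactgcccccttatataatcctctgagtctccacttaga
Ifit1bl1 (fell), chr19:34601969-34602128, minus strand: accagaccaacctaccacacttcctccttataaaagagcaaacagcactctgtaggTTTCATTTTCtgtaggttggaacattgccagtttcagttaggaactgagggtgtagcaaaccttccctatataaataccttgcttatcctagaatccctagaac
Rsad2 (fell), chr12:26456453-26456612, minus strand: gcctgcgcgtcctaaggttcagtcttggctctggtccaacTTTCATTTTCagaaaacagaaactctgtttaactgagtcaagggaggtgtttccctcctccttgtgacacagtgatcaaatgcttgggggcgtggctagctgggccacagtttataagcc
Oas1a (fell), chr5:120907526-120907685, minus strand: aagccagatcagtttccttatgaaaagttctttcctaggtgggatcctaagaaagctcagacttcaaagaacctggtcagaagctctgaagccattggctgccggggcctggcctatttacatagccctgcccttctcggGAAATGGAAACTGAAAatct
Oas1g (fell), chr5:120887614-120887773, minus strand: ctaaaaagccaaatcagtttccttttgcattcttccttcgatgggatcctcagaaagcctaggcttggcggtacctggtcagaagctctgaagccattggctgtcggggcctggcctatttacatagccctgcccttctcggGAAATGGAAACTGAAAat
Isg15 holds 3 overlapping matches, the first of them starting 78 bases before the start site, and it rose. Ifit1 and Ifit3 each hold 2 matches that read TTTCACTTTC and TTTCAGTTTC, yet Ifit3 fell and Ifit1 did not pass the test. Oas1a and Oas1g share the same run of 2 overlapping matches near the start site, and both fell. A match describes these letters and is no evidence of binding.

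All values below are log2 ratios of treated over untreated signal, as the mean of 3 arrays with limma's moderated standard error (SE), unless a level is named. A gene was called when its adjusted p in limma, with Benjamini-Hochberg adjustment over the 13181 genes, was under 0.05. Probes well above background made up 43.9% to 47.5% of each treated channel and 53.4% to 54.3% of each untreated channel. The ratios of all tested genes had a median of -0.17. Of 7 measured macrophage markers, all were well above background in every channel, 6 fell and Cd14 rose, with a median of -0.995. Their summed signal was 309456 to 336121 in untreated and 154636 to 191442 in treated cells, and fewer cells of a type and less RNA per cell cannot be told apart in such RNA. Markers of plasmacytoid dendritic cells, which make much interferon, had a summed signal of 43477 to 50200 in untreated and 53244 to 58980 in treated cells. Of the 5 measured of 6, 1 rose (Pacsin1, 0.37) and none fell. Of 6 T cell markers, Cd3d, Cd3g and Cd8a were not well above background in any channel, while Cd3e (0.96) and Lck (0.89) rose and Cd4 was not called. Of 5 B cell markers, 2 measured, Cd79b fell by 1.69 and Pax5 was not called. Of 4 NK cell markers, Ncr1 and Klrb1c were not well above background in any channel, and Prf1 and Gzma were not called. Of the 6 measured neutrophil markers, 3 rose, among them Camp (1.27), and Ltf (-2.08) and Mpo (-1.32) fell. Their summed signal was 24712 to 28437 in untreated and 26310 to 41291 in treated cells. Of the conventional dendritic cell markers, Zbtb46 rose by 1.51, Flt3 was not called, and Xcr1 and Clec9a were not well above background in any channel. Of the measured fibroblast markers 2 of 3 rose, as did both measured megakaryocyte markers, and no mast cell and basophil marker was well above background in any channel. The part of these cell markers in the results on the antiviral genes was not tested.

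More antiviral genes fell than rose. Of the 39 measured members, 26 fell (66.7%) and 7 rose (17.9%), while 46.1% of all tested genes fell and 24.5% rose. The 6 others were not called. Herc6 is among the falls and Xaf1 and Zbp1 among the rises by their brightest probe, though another probe of each had a mean of opposite sign. Under median centring instead of loess, limma called 0 of the 39 members and 0 of all tested genes. An unadjusted limma p under 0.05 was found for 24 members and for 5315 of the 13181 genes. In that setting 37 members lay below 0, while the tested genes as a whole had a median of -1.03. With loess, the members' median was -0.61, with -0.62, -0.65 and -0.53 on replicates 1, 2 and 3, and the members spanned -3.17 to 1.11. At 2-fold or more, 12 members fell and 3 rose, against 12.6% and 6.8% of all tested genes. After centring every array on its tested genes, 24 members fell and 7 rose, with a median of -0.44. Of all tested genes, 36.7% then fell and 35.2% rose. The same centring lowered the share of falls among the calls of all genes from 65.3% to 51.0%, and that share was 78.8% and 77.4% among the members.

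**Figure D1:**
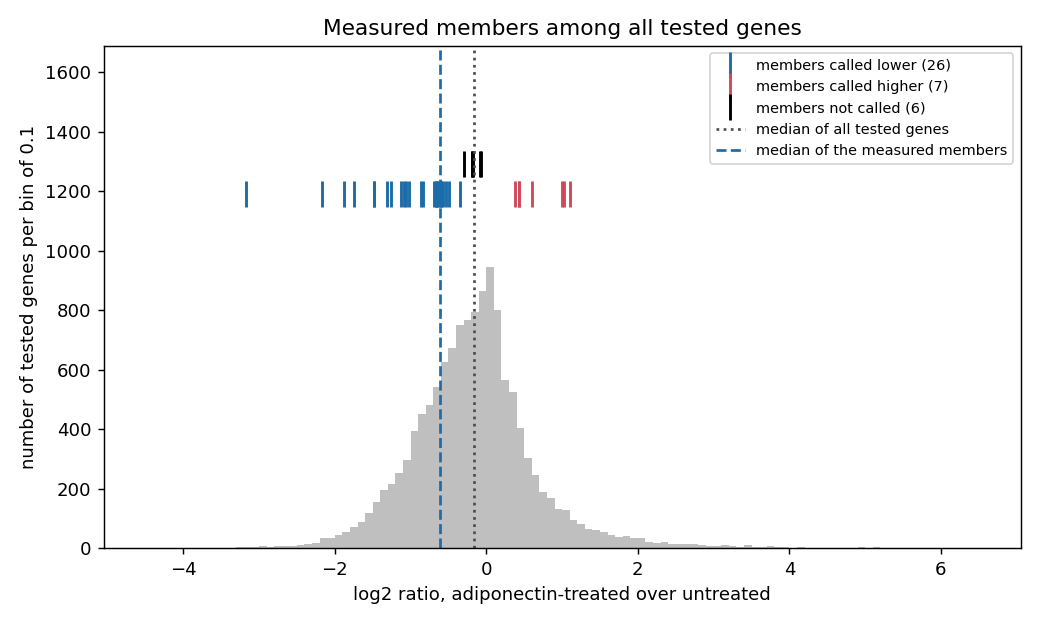
Histogram of the mean log2 ratio (treated over untreated) of the 13181 tested genes in bins of 0.1, with a tick for each of the 39 measured antiviral genes by call and lines at both medians. The 26 members that fell spread from -3.17 to -0.34 and the 7 that rose from 0.38 to 1.11; the median was -0.61 for the members and -0.17 for all tested genes.

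**Figure D2:**
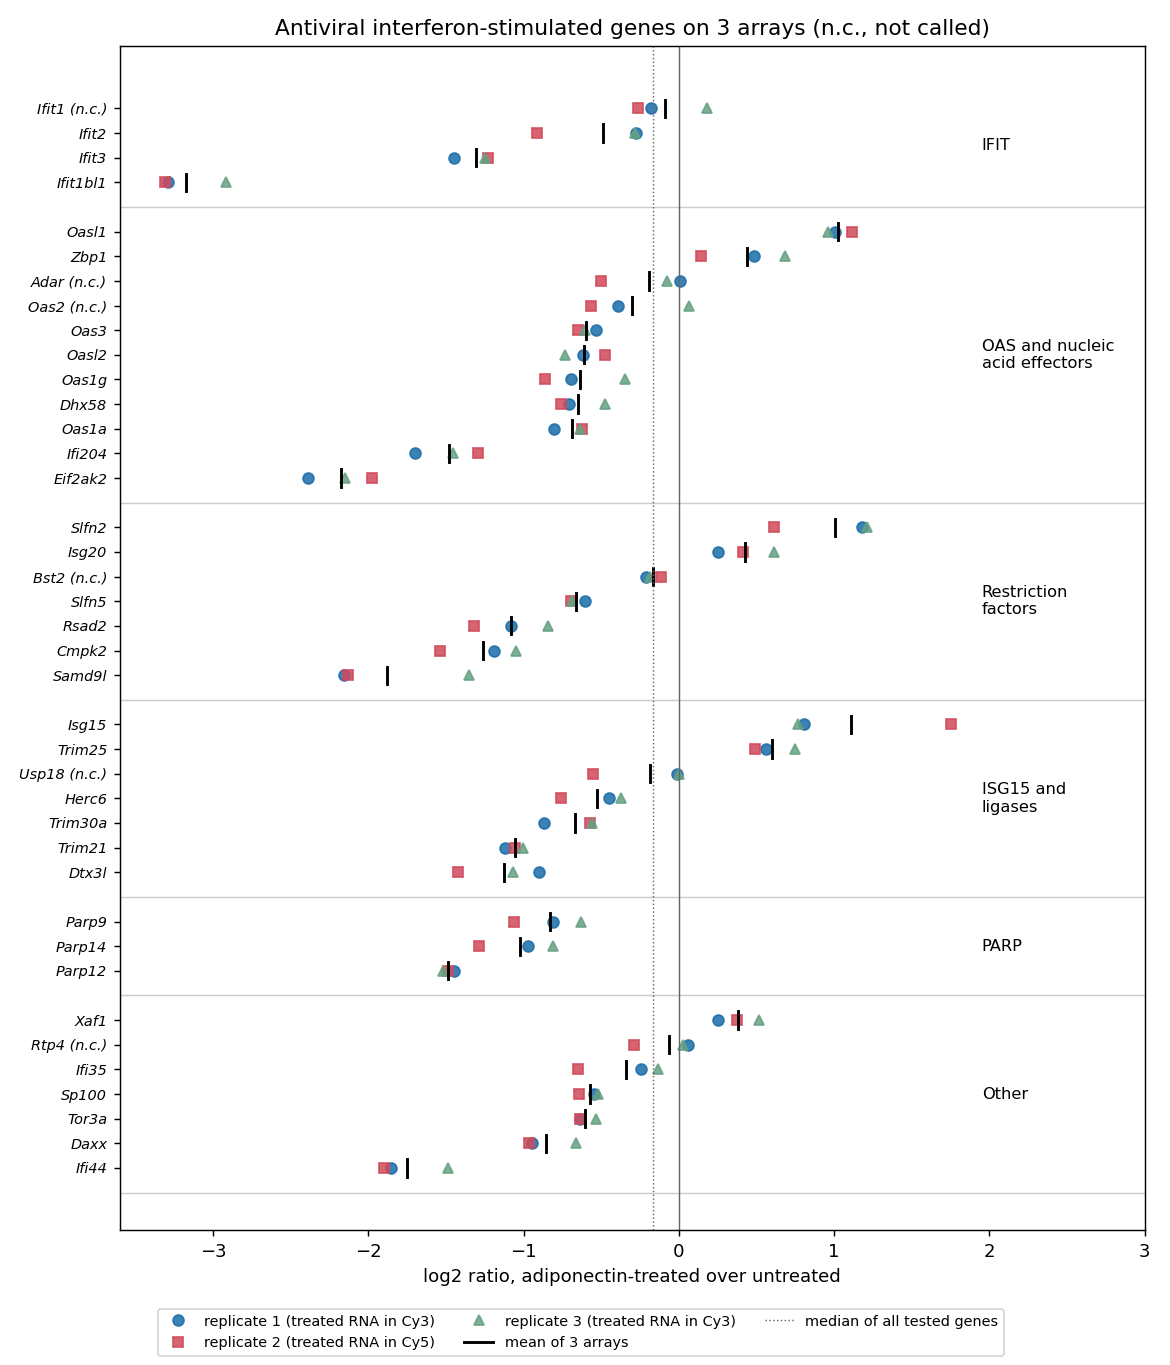
Log2 ratio of treated over untreated signal of each measured member on each of the 3 arrays (symbols by replicate), grouped by role, with the mean as a black bar; n.c. marks members that were not called. All 3 measured PARP genes lay below 0 on every array, and the 4 IFIT genes had means below 0; the other groups held means on both sides of 0.

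The IFIT proteins bind viral RNA that lacks the cap marks of the host. Their 4 genes ranged from a small difference to the lowest value of the list. Ifit1bl1, a relative of Ifit1, had a normalised log2 signal of 13.46, 13.63 and 13.26 in untreated cells and of 10.17, 10.32 and 10.35 in treated cells on replicates 1, 2 and 3. The treated and untreated ranges were far apart, and the gene ranked 12 from the lowest among the 13181. It fell by 3.17 ± 0.101 (n = 3 arrays), or 9.02-fold, with ratios of -3.29, -3.31 and -2.92 (limma adjusted p = 8.7e-08). Ifit3, which stabilises IFIT1 on RNA in human cells, fell by 1.31 ± 0.0866, with -1.45, -1.23 and -1.25 on the arrays (limma adjusted p = 3.03e-06). Ifit2, which binds AU-rich RNA, had -0.28, -0.91 and -0.28, a mean of -0.49 ± 0.131 (limma adjusted p = 0.00884). The value of replicate 2 stood apart from the other pair, and after centring every array on its tested genes the call of Ifit2 was lost (-0.32, limma adjusted p = 0.0501). Ifit1, the cap-binding member, had untreated log2 signals of 13.28, 13.36 and 13.04 and treated ones of 13.10, 13.10 and 13.22, so its groups overlapped. Its ratio was -0.09 ± 0.104 with a 95% interval from -0.33 to 0.15 (limma adjusted p = 0.469).

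Oligoadenylate synthetases make the second messenger that activates RNase L, which cuts RNA. Of the 4 measured synthetase genes, Oas1a, Oas1g and Oas3 fell and Oas2 was not called, where 46.1% of all tested genes fell. Oas1a was at -0.69 ± 0.0842, Oas3 at -0.60 ± 0.0808 and Oas1g at -0.64 ± 0.109, with array values of -0.70, -0.86 and -0.35 for Oas1g. The normalised log2 signal of Oas1g was between 6.70 and 7.60 in all channels, and a normexp offset of 0 moved its ratio to -0.98. Oas1a and Oas1g are close copies, and probes of such copies can share signal, so their separate values are uncertain. Oas2 had -0.39, -0.57 and 0.07, which lie on both sides of 0, and was not called (-0.30 ± 0.122, limma adjusted p = 0.0553). It was called lower without replicate 3 (-0.48, limma adjusted p = 0.00614) and with the dye term (limma adjusted p = 0.0147). The dye term weighs replicate 2, the lowest array of Oas2, as much as replicates 1 and 3 together.

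The synthetase-like genes moved apart. Oasl1, whose product restrains translation of the interferon regulator Irf7, had untreated log2 signals of 15.45, 15.11 and 15.44 and treated ones of 16.45, 16.23 and 16.40. The ranges did not overlap, and it rose by 1.03 ± 0.0824, or 2.04-fold (limma adjusted p = 8.99e-06). Its ratio was 0.019 under median centring instead of loess, where all tested genes had a median of -1.03 and none was called. Oasl2, the other synthetase-like gene, fell by 0.61 ± 0.0874 (limma adjusted p = 0.000287).

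Among the other nucleic acid effectors the largest fall was that of Eif2ak2, which encodes PKR, the kinase that stops translation when it meets double-stranded RNA. Its log2 signal was 11.87, 11.69 and 11.76 in untreated and 9.49, 9.72 and 9.61 in treated cells. These ranges were apart on all arrays, and Eif2ak2 fell by 2.17 ± 0.0986, or 4.51-fold (-2.39, -1.98 and -2.15, limma adjusted p = 4.39e-07). Ifi204, of the DNA-binding IFI200 family, had ratios of -1.70, -1.29 and -1.46 and fell by 1.48 ± 0.0984 (limma adjusted p = 3.07e-06). The family holds close copies, so part of this signal may belong to a relative. Dhx58, which encodes LGP2, a regulator of the RNA sensors RIG-I and MDA5, fell by 0.65 ± 0.0897 (limma adjusted p = 0.000231).

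Zbp1, a sensor of Z-form nucleic acid that can start cell death, had 0.48, 0.14 and 0.69 and rose by 0.44 ± 0.111 (limma adjusted p = 0.00722). It had -0.66 under median centring instead of loess, where all tested genes had a median of -1.03 and none was called. Its call was lost without replicate 3 (0.31, limma adjusted p = 0.0573) and with the scanner software's log ratio (0.36, limma adjusted p = 0.0521). A dimmer probe of Zbp1, matched to another transcript, gave 0.11, -0.42 and 0.09, a mean of -0.07. The mean over both probes was 0.18 and was not called (limma adjusted p = 0.168). Adar, the enzyme that edits adenosine in double-stranded RNA, had 0.0041, -0.50 and -0.07 and was not called (-0.19 ± 0.110, 95% interval -0.44 to 0.06, limma adjusted p = 0.155). A dimmer probe to the same transcript gave -1.10, -1.42 and -1.50. The mean over the probes of Adar was -0.77 and was called lower (limma adjusted p = 0.000124). The brightest probe alone was called lower with the dye term (-0.27, limma adjusted p = 0.0139), which gives the most weight to replicate 2, its lowest array.

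Of the 7 measured genes whose products act on virus entry, replication or release, 4 fell (57.1%) and 2 rose (28.6%), near the 46.1% and 24.5% of all tested genes. Samd9l, an inhibitor of translation, had untreated log2 signals of 14.18, 14.27 and 13.90 and treated ones of 12.02, 12.14 and 12.55. It fell by 1.88 ± 0.152, or 3.68-fold (limma adjusted p = 9.53e-06), with -2.16 and -2.13 on replicates 1 and 2 and -1.35 on replicate 3, and its dimmer probe gave a mean of -1.80. Rsad2 encodes viperin, which makes a chain-terminating nucleotide, and Cmpk2 is its neighbour, a nucleotide kinase that supplies the substrate. Rsad2 fell by 1.08 ± 0.104 (-1.08, -1.32 and -0.85, limma adjusted p = 2.56e-05). Cmpk2 fell by 1.26 ± 0.107 (-1.19, -1.54 and -1.05, limma adjusted p = 1.21e-05). Both genes were lowest on replicate 2 and highest on replicate 3.

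The Schlafen genes differed in direction. Slfn5 fell by 0.66 ± 0.0805, with values from -0.70 to -0.60 (limma adjusted p = 0.000103). Slfn2, which is needed for immune cell quiescence, had untreated log2 signals of 14.09, 14.30 and 14.04 and treated ones of 15.27, 14.92 and 15.25. The ranges did not overlap, and Slfn2 rose by 1.00 ± 0.124, or 2-fold (1.18, 0.61 and 1.21, limma adjusted p = 0.000117). Isg20, an RNA exonuclease, rose by 0.43 ± 0.0943 (0.25, 0.41 and 0.61, limma adjusted p = 0.00339) with 0.69 from its dimmer probe. Median centring instead of loess gave -0.050 for Slfn2 and -0.57 for Isg20. In that setting all tested genes had a median of -1.03 and none was called. Bst2, or tetherin, which holds budding virus at the cell surface and is also used as a marker of plasmacytoid dendritic cells, was not called (-0.17 ± 0.0804, 95% interval -0.35 to 0.02, limma adjusted p = 0.0895).

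**Figure D3:**
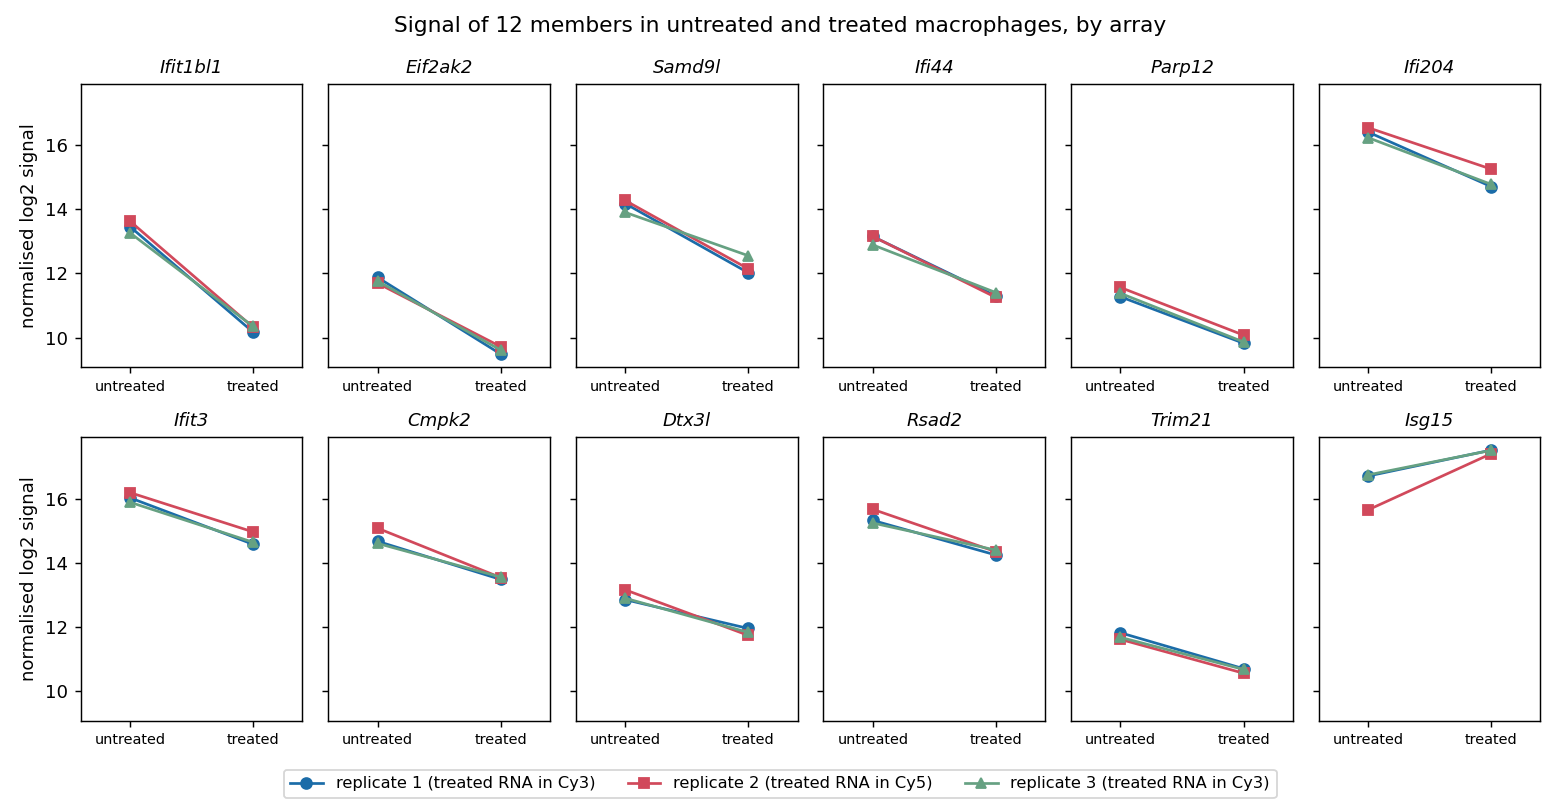
Normalised log2 signal in untreated and treated cells, joined by array, for the 12 members with the largest absolute ratio; levels of different genes come from different probes and are not comparable. Isg15 is the only gene shown whose lines run upward, from 15.65 on replicate 2 and from 16.70 and 16.74 on replicates 1 and 3.

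ISG15 is joined to other proteins by an enzyme cascade that ends in HERC6 in the mouse, and USP18 removes it. The genes of this system did not move together. Isg15 had untreated log2 signals of 16.70, 15.65 and 16.74 and treated ones of 17.51, 17.40 and 17.51. All treated values were above all untreated ones, but the untreated value of replicate 2 was about 1 unit below the others. Isg15 rose by 1.11 ± 0.177, or 2.16-fold (limma adjusted p = 0.000545), with 0.81 and 0.77 on replicates 1 and 3 and 1.75 on replicate 2. Without replicate 2 its ratio was 0.79 and it remained called. The ratio was 0.14 under median centring, where all tested genes had a median of -1.03 and none was called. A dimmer probe of Isg15 gave 1.65, 1.10 and 1.75, with replicate 2 the lowest.

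Usp18, also a brake on the interferon receptor, had -0.01, -0.55 and 0.0029 and was not called (-0.19 ± 0.120, 95% interval -0.46 to 0.09, limma adjusted p = 0.192). With the dye term, which gives the most weight to replicate 2, Usp18 was called lower (-0.28, limma adjusted p = 0.0108). The probes of Herc6 disagreed. The brighter gave -0.45, -0.76 and -0.37 and was called lower (-0.53 ± 0.0984, limma adjusted p = 0.00135), the other, nearly as bright, gave 0.41, 0.45 and 0.79, and their mean was 0.011 (limma adjusted p = 0.916). No direction can therefore be given for Herc6.

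With the ubiquitin ligases of the TRIM and Deltex families, the ISG15 group held 7 genes, of which 4 fell (57.1%) and 2 rose (28.6%), near the 46.1% and 24.5% of all tested genes. Trim21, a cytosolic antibody receptor, had -1.12, -1.06 and -1.001 and fell by 1.06 ± 0.0809 (limma adjusted p = 6.78e-06). Trim30a, which restrains NF-kB signalling, fell by 0.67 ± 0.0935 (limma adjusted p = 0.000243). Trim25, which ubiquitinates RIG-I, rose by 0.60 ± 0.0875 (limma adjusted p = 0.000311). It had -0.42 under median centring instead of loess, where all tested genes had a median of -1.03 and none was called. Dtx3l had -0.90, -1.42 and -1.07 and fell by 1.13 ± 0.110 (limma adjusted p = 2.68e-05), while its dimmer probe gave a mean of -0.34.

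DTX3L forms a complex with PARP9, an ADP-ribose reader, and both genes fell. All 3 measured PARP genes, Parp9 among them, fell, where 46.1% of all tested genes fell. Parp12, which limits translation of viral RNA, had untreated log2 signals of 11.27, 11.56 and 11.38 and treated ones of 9.82, 10.08 and 9.86. Its ratios of -1.45, -1.49 and -1.52 were the closest together of any member, and it fell by 1.48 ± 0.0797, or 2.8-fold (limma adjusted p = 1.01e-06). Parp14, a mono-ADP-ribosyl transferase, fell by 1.02 ± 0.105 (-0.97, -1.29 and -0.81, limma adjusted p = 3.75e-05). Parp9 fell by 0.83 ± 0.100 (-0.81, -1.06 and -0.63, limma adjusted p = 9.65e-05).

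Of the 7 remaining genes 5 fell and 1, Xaf1, was called higher with its brighter probe, where 46.1% of all tested genes fell and 24.5% rose. Ifi44, a microtubule-linked protein gene of the early interferon response, had untreated log2 signals of 13.15, 13.15 and 12.89 and treated ones of 11.29, 11.25 and 11.40. The groups were apart, and Ifi44 fell by 1.75 ± 0.102, or 3.36-fold (-1.86, -1.90 and -1.49, limma adjusted p = 1.56e-06). Daxx, a histone chaperone of nuclear bodies, had -0.94, -0.97 and -0.66 and fell by 0.86 ± 0.0927 (limma adjusted p = 5.01e-05). Sp100, another nuclear body protein gene, fell by 0.57 ± 0.0813 and Tor3a, a torsin ATPase gene, by 0.60 ± 0.0808 on the log2 scale (limma adjusted p = 0.00027 and 0.000188).

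Ifi35 had -0.24, -0.65 and -0.13, a mean of -0.34 ± 0.110 (limma adjusted p = 0.0220). Its call was lost without replicate 2 (-0.19, limma adjusted p = 0.0927) and after centring every array on its tested genes (-0.17, limma adjusted p = 0.198). The call of Ifi35 was also lost with a normexp offset of 0 and with the scanner software's log ratio. Xaf1, an antagonist of an apoptosis inhibitor, had 0.25, 0.38 and 0.51 with its brighter probe and was called higher (0.38 ± 0.0873, limma adjusted p = 0.00411). Its dimmer probe, well above background in 5 of 6 channels, gave -1.16, -1.46 and -1.03. The mean log2 signal of the arrays was 7.24 for that probe and 15.08 for the brighter one. The mean ratio over both probes was -0.42 and was called lower (limma adjusted p = 0.00209), so no direction can be given for Xaf1. The brighter probe alone had -0.65 under median centring, where all tested genes had a median of -1.03 and none was called. Rtp4, a chaperone of receptors, had 0.06, -0.29 and 0.03 and was not called (-0.07 ± 0.0963, 95% interval -0.29 to 0.15, limma adjusted p = 0.560).

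The members differed between arrays in a shared way. Replicate 2, the array with the treated RNA in Cy5, gave the lowest ratio of the 3 for 25 of the 39 members (64.1%), against 32.0% of all tested genes. Replicate 3 gave the highest ratio for 24 members (61.5%), against 25.7% of all genes. The ratio of replicate 2 minus the mean of replicates 1 and 3 had a median of -0.17 over the members and of 0.03 over all tested genes. It was -0.63 for Ifit2, -0.58 for Slfn2 and -0.55 for Usp18, and at the other end 0.97 for Isg15 with its brightest probe. The dimmer probe of Isg15 was lowest on replicate 2, with 1.65, 1.10 and 1.75. The range over the arrays had a median of 0.39 for the members and 0.27 for all tested genes. Because the dyes were swapped on replicate 2 alone, the dye and this replicate's cells cannot be told apart. In the fit with a dye term, no member had a dye coefficient past the threshold, and 44 of the 13181 tested genes did. The lowest limma adjusted p among members was 0.0668, for Isg15. As replicate 2 alone was swapped, this fit could miss a dye effect. Across the 39 members, which are not independent replicates, the arrays correlated at r = 0.942 (replicates 1 and 2), 0.979 (1 and 3) and 0.932 (2 and 3).

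**Figure D4:**
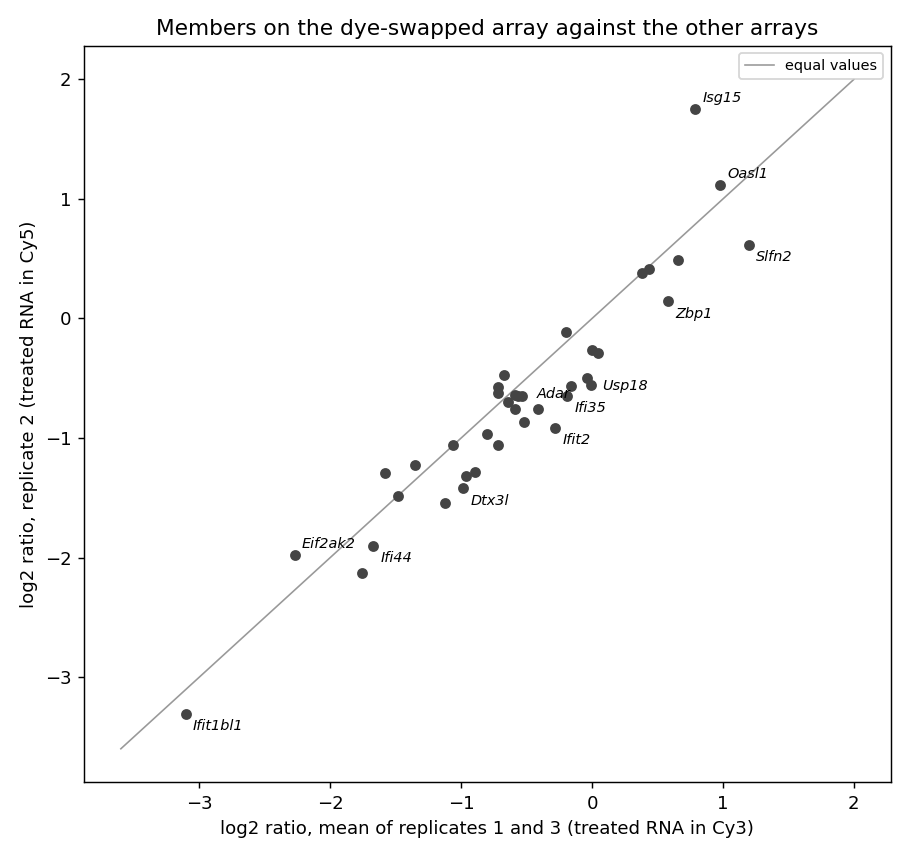
Log2 ratio (treated over untreated) of the 39 members on replicate 2 against the mean of replicates 1 and 3, with the line of equal values; members more than 0.43 from the line and 4 at the extremes are named. Most points lie below the line, among them Ifit2, Slfn2 and Usp18. Isg15, shown by its brightest probe, lies furthest above the line, at 1.75 against 0.79.

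The pathway that leads to these genes was described with a list of 38 further genes of interferon production and signalling. Of the 36 measured, 13 rose (36.1%) and 14 fell (38.9%), with a median of 0.0024, against 24.5%, 46.1% and -0.17 for all tested genes. Ifnb1, which encodes interferon beta, rose by 1.85 ± 0.113 (1.53, 1.97 and 2.06, limma adjusted p = 1.93e-06), so the ligand gene was higher on every array on which most of the antiviral genes were lower. Ifna1, for an interferon alpha, rose by 0.32 ± 0.0996 (limma adjusted p = 0.0190), with a dim normalised log2 signal of 6.68 to 7.25 over the channels. Ifna2 was not called (0.05, limma adjusted p = 0.584), and Ifna4 was not well above background in any channel. Of the receptor genes, Ifnar2 rose by 1.04 ± 0.0817, and Ifnar1 was at -0.03 ± 0.0852 with its brightest probe but at 1.85 and 1.13 with its dimmer ones. Ifngr2, a chain of the interferon gamma receptor, rose by 1.06 ± 0.0811, and Ifngr1, the other chain, fell by 1.76 ± 0.0881 on the log2 scale. The kinase genes Jak1 (-0.05 ± 0.0988) and Tyk2 (-0.02 ± 0.146) were not called, with limma adjusted p = 0.687 and 0.910, and Jak2 rose by 0.65 ± 0.0800.

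Of the ISGF3 genes, Stat2 fell by 1.45 ± 0.0971 on the log2 scale, while Irf9 was at 0.05 ± 0.0801 (limma adjusted p = 0.620). Among the regulators, Irf5 fell by 1.21 ± 0.109 and Irf3, which switches on the interferon beta gene, by 0.95 ± 0.0803, and Irf1 rose by 1.16 ± 0.100. Irf7 was not called, with 0.01, -0.74 and -0.05 (-0.26 ± 0.143, limma adjusted p = 0.135). The inhibitors of JAK kinases Socs3 and Socs1 rose by 3.30 ± 0.0847 and 1.44 ± 0.108. Ticam1, the adaptor of the sensor TLR3, rose by 1.83 ± 0.0989, while Tlr3 itself fell by 1.52 ± 0.0807 and Tlr7, a sensor of single-stranded RNA, by 1.22 ± 0.0820. Tmem173, which encodes the DNA-signalling adaptor STING, fell by 2.16 ± 0.113, the lowest value of the list, and Ifih1, the RNA sensor MDA5, fell by 1.05 ± 0.0834. Every call in this list was lost under median centring, where limma called no gene on the arrays (5315 had an unadjusted p under 0.05).

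**Figure D5:**
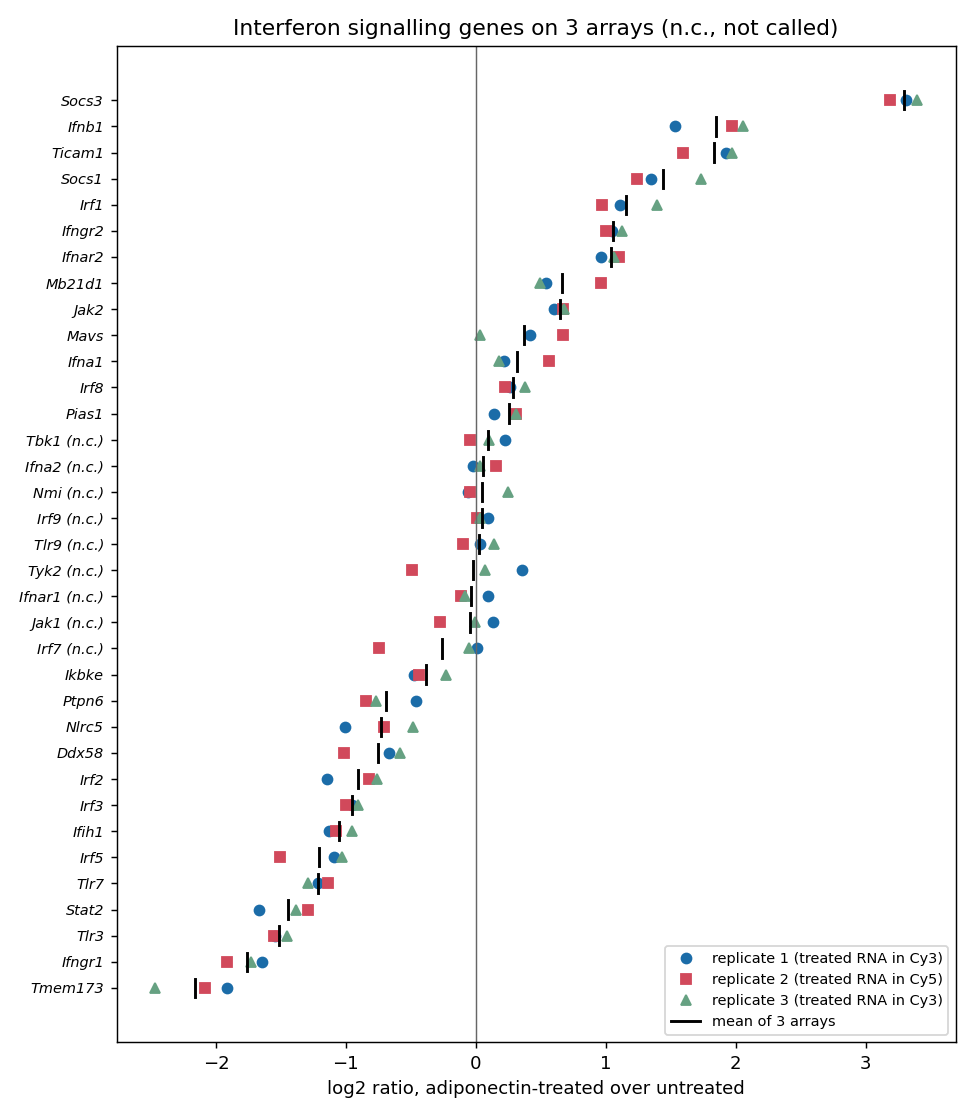
Log2 ratio (treated over untreated) of measured interferon signalling genes on each array, with the mean as a black bar, ordered by the mean; n.c. marks genes that were not called. Socs3 (3.30) and Ifnb1 (1.85) lie at the top and Tmem173 (-2.16) at the bottom.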

How the data were processed

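Spots were quantified with Agilent Feature Extraction 10.7.3.1, per the file headers, and the 3 arrays lay on 1 slide and in 1 scan. The deposited intensity columns hold the median brightness of each spot and its background per dye, with no normalization. The deposited log10 ratio is Cy5 over Cy3 after the scanner software's background and dye correction, per the file headers. The authors' deposited log2 table has no stated method, and its background handling stays unknown. Its correlation with loess ratios of treated over untreated signal, made without background correction, was r = 0.994, 0.990 and 0.992 over spots. The medians of the authors' table were -0.00041, -0.0049 and -0.00064.

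Median signals were corrected with normexp (offset 50) and loess-normalized with limma 3.58.1 (R 4.3.3). Control spots had weight 0, and outlier spots were left out. Per-channel signals were also scaled between arrays (Aquantile). Accessions were named through RefSeq (GRCm38.p6). A probe was kept when well above background in at least 3 of 6 channel readings, and the brightest probe stood for its gene. The 3 ratios were tested against 0 with lmFit and eBayes. The fit was tested on simulated data. Members and lists were chosen with earlier results of these data known. Values of every array are given for the 2 members with the largest absolute ratio in each role group, the 12 largest in all, those whose probes had opposite signs and those whose array SD was over 2 times the moderated SE, and other members may be named. Of the pathway list, the 5 highest and 5 lowest called genes and the receptor and kinase genes and Stat2 are named, some genes are not reported here, and other pathway genes were chosen after their values were seen.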

Additional observations from a re-analysis of the deposited data

How the results depend on the processing

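Of the 33 called members, 28 kept their direction and call in all 14 alternatives other than median centring and a required 2-fold change; Herc6, Ifi35, Ifit2, Xaf1 and Zbp1 did not. Of the 6 not called, Adar, Oas2 and Usp18 passed in at least 1 of them. With each replicate left out in turn, 6 to 7 members rose and 25 to 27 fell, and the median was -0.64 to -0.59. In those fits 10 to 11 pathway genes rose and 14 fell. Of all tested genes, 21.0% to 23.9% rose and 40.7% to 46.6% fell. The counts of members in the authors' table were 7 and 26, against 27.0% and 45.4% of all tested genes. Under median centring instead of loess, limma called 0 members and 0 pathway genes in either direction (24 members and 5315 genes at an unadjusted p under 0.05). The members' median was then -1.70 and that of all tested genes -1.03, 37 of the 39 members were below 0, and Zbp1 (-0.66), Isg20 (-0.57), Slfn2 (-0.050), Trim25 (-0.42) and Xaf1 (-0.65) changed sign; the cause was not tested. After centring every array on its tested genes the median was -0.44, a shift that the centring itself sets. A required log2 change of 1 tests for more than a difference from 0. With it 0 members rose and 7 fell (Ifit1bl1, Eif2ak2, Samd9l, Ifi44, Parp12, Ifi204 and Ifit3). Of the pathway genes 4 rose and 4 fell, while 4.36% of all tested genes rose and 6.62% fell. With the mean over probes, Herc6 (0.011) and Xaf1 (-0.42) changed sign, since their probes disagreed. In that setting 5 members rose and 27 fell, against 24.3% and 46.7% of all tested genes. A slide or scan block could not be fitted, as all arrays shared both. All 39 members were well above background in all 6 channel readings.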
